A study of Mus musculus with 178 samples.

Results

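The blood transcriptome of mice whose oral tumors did not respond to an antibody against PD-1 was followed from Day 4, before treatment, to Day 24, the last day on treatment. Of the 178 bulk RNA-seq libraries of the series, 58 entered this comparison: the Day 4 and the Day 24 library of 29 non-responder mice, matched by ear tag. A mouse counted as a non-responder by the label of its libraries, so that stable disease was included (15 of the 29 pairs, as the study's source data on tumor volume give it). No measured value was used to choose the libraries. The series holds 45 mice in all, 30 of them labelled non-responders. One non-responder has a Day 24 library but no Day 4 library here and was left out of the paired comparison. Mice are named NR1 to NR30 in the order of their ear tags.

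Every mouse was a C57BL/6J animal, 6 to 8 weeks old at the start, and carried an orthotopic tumor of 4MOSC1 cells, a mouse oral squamous carcinoma line derived from carcinogen-induced lesions, injected into the mouth. All mice were injected with the anti-PD-1 antibody (clone RMP1-14) every 3 days, and the sources differ on whether this began on Day 4, after the first bleed, or on Day 7. Hence no untreated tumor-bearing mice and no mice without a tumor stand beside the Day 24 libraries. Day 24 differs from Day 4 in treatment, tumor age, mouse age and earlier bleeds, and these cannot be told apart in this design. The ear tags fall into a 3-digit series (22 pairs) and a 4-digit series (7 pairs), and values within each series are given for the main results. Whole blood was taken by retro-orbital bleeding and lysed in TRIzol, and libraries were made from polyadenylated RNA.

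PD-1 is an inhibitory receptor of activated T cells, and an antibody against it is given to release T cells from that brake. Whole blood mixes the RNA of reticulocytes and red cells, platelets, neutrophils, monocytes, and B, T and NK cells. In such a bulk sample, fewer cells of a type and less RNA per cell cannot be told apart. Immunoglobulin transcripts with switched constant regions (IgG and IgA) come from B cells that have exchanged the IgM heavy chain for another class, and plasma cells make most of that RNA. NK cells and cytotoxic T cells carry perforin and granzymes, the proteins with which they kill target cells.

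The 58 libraries held 37027981 to 82208651 counts each (median 52485405), of which genes of haemoglobin took 68.7% to 88.0%, so that 4655155 to 22174654 counts remained for all other genes. Defining markers of blood cells were present: Alas2, the erythroid enzyme of haem synthesis, Cd3e of the T cell receptor complex, the B cell receptor subunit Cd79a and the neutrophil gene S100a8 had counts in all 58 libraries. The female-specific RNA Xist had counts in all 58 libraries and 4 genes of the Y chromosome had none in any, although the study states that both sexes were used. The epithelial keratins Krt5 and Krt14 were near 0, at a median of 0.0137 and 0.00953 CPM (counts-per-million) on Day 4 and 0.0277 and 0.0254 CPM on Day 24. The Day 24 library of NR29 stood apart. It had 12605 genes with a count, against 14659 in the next lowest library, and a TMM factor (the scaling factor of edgeR) of 0.0802 against 0.464 in the next lowest. Its 10 most abundant genes outside haemoglobin took 43.6% of the non-haemoglobin counts, against at most 27.9% in any other library, and Alas2 alone took 15.8%. CPM here are relative to the TMM-scaled library size, so that every CPM of the NR29 library is its plain value divided by 0.0802. Day 24 medians and ranges below therefore leave out NR29, whose value is given apart where it matters, whereas the fitted changes include it unless stated.

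Haemoglobin transcripts took a larger share of the counts on Day 24. The share averaged 77.8% ± 5.21 on Day 4 and 81.5% ± 2.88 on Day 24 (SD, n = 29 each). It was higher on Day 24 in 20 of 29 mice, by 3.74 percentage points on average (SD 5.98; two-sided sign-flip permutation test, p = 0.00276), and by 3.65 points without NR29 (p = 0.00423). Within the 3-digit series the difference was 4.22 points (higher in 15 of 22 mice, p = 0.0073). Within the 4-digit series it was 2.23 points (higher in 5 of 7 mice, exact sign-flip permutation test, p = 0.141).

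Of 12375 genes tested with edgeR's quasi-likelihood test and the mouse as a block, 2922 (23.6%) rose and 2630 (21.3%) fell (p adjusted by Benjamini-Hochberg, threshold 0.05). Most of these changes were small: 349 of the genes that rose and 164 of those that fell did so by at least 1.5-fold. Without NR29, 3316 of 12397 genes (26.7%) rose and 2965 (23.9%) fell, and 5479 calls with the same direction were shared between both fits. The median change over all genes tested was 0.02 on the log2 scale, which is the background for the medians of gene lists given below. With so large a share of genes called, a list is described by its counts and median beside these percentages, and no test of a list was made. In the 22 pairs with 3-digit tags alone, 3022 genes rose and 3424 fell. Leaving out the 15 mice of stable disease left 14 pairs, in which 2218 of 12247 genes rose and 2225 fell. These are the background for list counts given without those mice. In the 7 pairs with 4-digit tags, 12 rose and 0 fell, with 923 genes at an unadjusted p under 0.05, and without NR29 (6 pairs) 267 rose and 98 fell. Of the genes that rose in the 3-digit series, 70.5% (2112 of 2997) had a positive change in those 6 pairs, against 49.6% of all genes, and of the genes that fell 73.8% (2501 of 3387) had a negative one, against 50.4% of all genes. In all 7 pairs these shares were 62.2% (1861 of 2992, against 49.1%) and 65.0% (2199 of 3383, against 50.9%). On log2(TPM + 1), a scale on which the median of all genes is shifted by -0.18, 148 genes were called higher and 8037 lower (limma). The share of higher calls was thus 1.81% there, against 52.6% with TMM scaling. Haemoglobin took 92.7% of the TPM sum on Day 4 and 94.3% on Day 24.

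Class-switched immunoglobulin transcripts rose, while IgM and the light chain genes Igkc and Iglc1 fell. Of 11 immunoglobulin constant genes tested (of 12 listed), 5 rose and 3 fell, with a median change of 0.23. On log2(TPM + 1) the median was -0.25, which is 0.07 below the median of all genes on that scale. Ighg1, the IgG1 heavy chain (chr12:113325240-113330523, minus strand, mm10), ran from 0.0303 to 0.543 CPM (median 0.226) on Day 4 and from 0.817 to 2.70 CPM (median 1.44) on Day 24. The groups did not overlap, and NR29 lay inside the Day 24 range at 1.26 CPM. Ighg1 was the only gene of 12375 (0.00808%) whose Day 24 libraries were all above all Day 4 libraries. Its fitted change was 2.52 ± 0.17 (log2, SE; edgeR adjusted p = 8.21e-12), and it was higher in 29 of 29 mice. These levels rest on few reads, with 1 to 47 counts per library on Day 4 and 5 to 195 on Day 24. Its median was 0.546 CPM on Day 9 and 1.22 CPM on Day 17, between those of the days at both ends.

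The other switched classes moved the same way. Ighg2b (IgG2b) ran from 0.330 to 1.29 CPM (median 0.699) on Day 4 and from 1.17 to 4.04 CPM (median 2.27) on Day 24, and it rose by 1.73 ± 0.12 (log2, SE; edgeR adjusted p = 1.41e-11; higher in 27 of 29 mice). Ighg2c, the IgG2c chain of this strain, had no count in 5 Day 4 libraries and a median of 2 counts there, against a median of 28 counts on Day 24, and was higher in 27 of 29 mice (edgeR adjusted p = 6.3e-10). The ranges of both genes overlapped between the days. Igha (IgA) ran from 3.11 to 12.3 CPM (median 7.20) on Day 4 and from 5.01 to 28.3 CPM (median 15.9) on Day 24, and it rose by 1.12 ± 0.14 (edgeR adjusted p = 1.97e-06; higher in 26 of 29 mice). Ighg3 (IgG3) rose by 0.79 in the same test. In the 3-digit series Ighg1, Ighg2b, Ighg2c and Igha were each higher in 22 of 22 mice, and in the 4-digit series they were higher in 7, 5, 5 and 4 of 7 mice. The change of Igha was 1.3 in the 3-digit pairs and 0.36 in the 4-digit pairs, that of Ighg2b 1.93 and 0.97, and that of Ighg2c 3.95 and 1.85, and in the 4-digit pairs only Ighg1 (2.01; edgeR adjusted p = 0.0331) was called, against 3 genes that rose there without NR29. The median of the list was 0.28 in the 3-digit pairs, -0.01 in the 4-digit pairs and 0.16 in the latter without NR29. A difference between the series was not tested. The constant genes of the IgG classes are near-identical in parts and the deposited counts are estimates, so that the split of reads among them is uncertain.

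Jchain, which joins IgA and IgM units into polymers, rose too. It ran from 0.453 to 2.45 CPM (median 1.47) on Day 4 and from 1.38 to 6.44 CPM (median 3.78) on Day 24, a change of 1.32 ± 0.12 (log2, SE; edgeR adjusted p = 1.03e-08), higher in 28 of 29 mice. The exception was NR29, at 1.01 CPM on Day 24. Across 28 mice without NR29 the change of Jchain was not related to that of Ighg2b at the threshold (r = 0.331, rho = 0.309, permutation p = 0.0834 for r, adjusted p = 0.1 over 6 relations; 0.37 without the 2 farthest mice, 0.0991 in the 3-digit series and 0.352 in the 6 mice of the 4-digit series). NR29 was also the only mouse in which the mean log2 level of the immunoglobulin list was lower on Day 24. By contrast, Ighm, the IgM heavy chain and the most abundant of these genes, fell from 389 CPM (median, 284 to 557) to a range of 242 to 338 CPM, with a mean of 295 CPM ± 44.8 (SD, n = 29, NR29 included), a change of -0.38 ± 0.07 (edgeR adjusted p = 0.00018), lower in 26 of 29 mice. The kappa constant gene Igkc fell by 0.32 and the lambda constant gene Iglc1 by 0.38. The plasma cell list, of which Jchain is a member, did not move as a group. Of 26 tested (of 28 listed), 3 rose, Jchain included, and 8 fell, with a median of -0.02. The 8 included the chaperones Pdia4 (-0.28) and Hsp90b1 (-0.19), which fold secreted proteins.

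**Figure D1:**
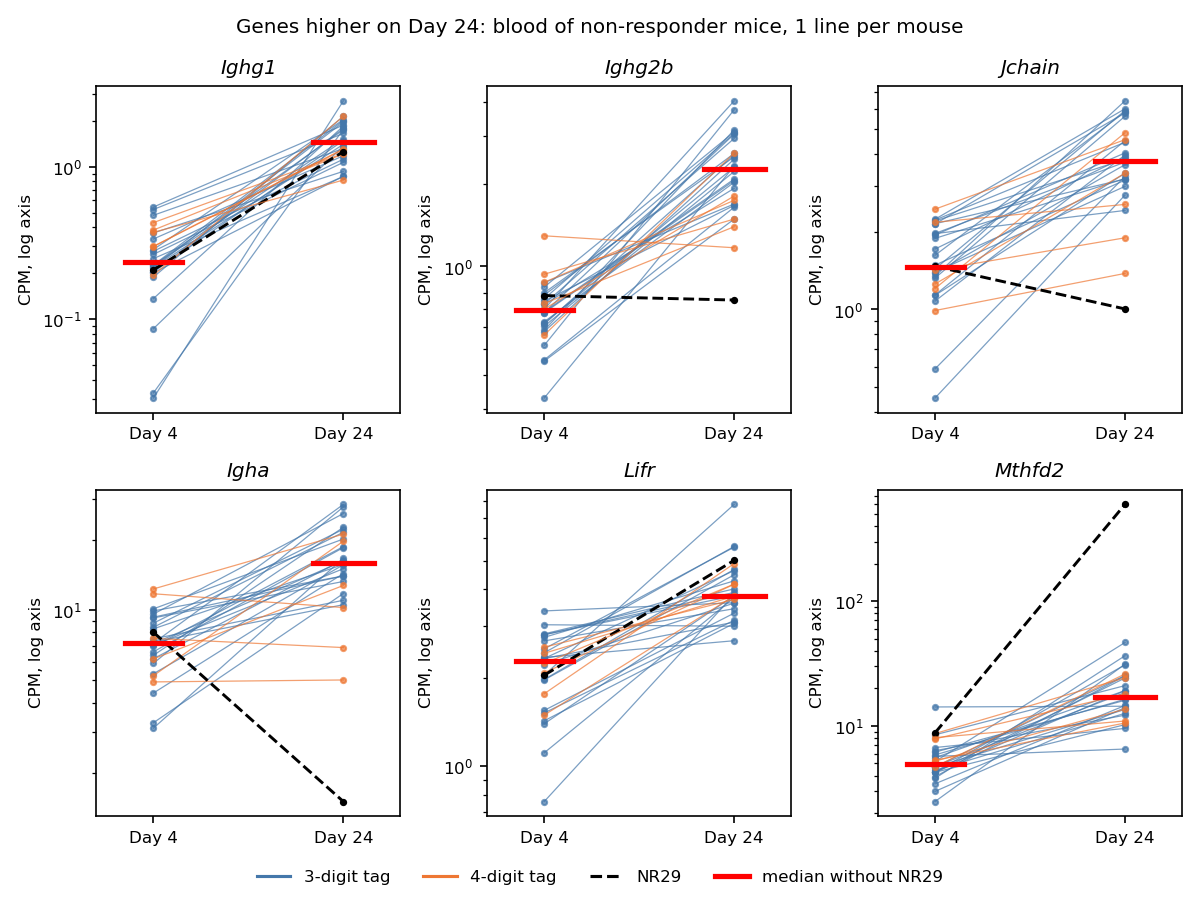
CPM of 6 genes that rose from Day 4 to Day 24 in non-responders, with 1 line per mouse from Day 4 to Day 24, colored by ear tag series, the dashed black line for NR29 and red bars at the medians without NR29. All axes are logarithmic. Ighg1 is above 0.8 CPM in every Day 24 library and below 0.6 CPM in every Day 4 library, and in Mthfd2 the NR29 library is far above the rest at 596 CPM.

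Genes of mature B cells were mostly lower or not called. Of 30 tested, 13 fell and 4 rose (median -0.10). With NR29 left out, 14 fell and 6 rose (median -0.06), and in the 3-digit pairs 14 fell and 5 rose. In the 4-digit pairs 0 were called (edgeR, with 923 of all genes at an unadjusted p under 0.05). There, without NR29, 1 fell and 1 rose (median -0.03). Vpreb3, which assists assembly of the B cell receptor and marks young B cells, ran from 2.31 to 6.40 CPM (median 3.82) on Day 4 and from 1.64 to 3.36 CPM (median 2.26) on Day 24. It was lower in 29 of 29 mice although the ranges overlapped, with a change of -0.68 ± 0.08 (log2, SE; edgeR adjusted p = 7.1e-07). Fcmr, the receptor for IgM, fell by 0.52, the B cell transcription factor Spib by 0.43 and the receptor subunit Cd79a by 0.46. Outside these lists, 3 genes among those with the smallest p that fell were Igf2bp3 (-1.52), an RNA-binding protein of fetal-type blood progenitors, Sox4 (-0.62), a transcription factor of lymphoid progenitors, and Lynx1 (-0.67).

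Transcripts of NK and cytotoxic cells were lower on Day 24 in every mouse when averaged over the list. Of 34 tested (of 36 listed), 23 fell and 1, the NK receptor subunit Klrd1 (0.17), rose, with a median of -0.34. On log2(TPM + 1) the change of Klrd1 was -0.21, against a median of -0.18 over all genes. In 29 of 29 mice the list's mean log2 level was lower on Day 24, by 0.37 on average (SD 0.29). Ncr1, the activating receptor NKp46 (chr7:4337724-4345164, plus strand, mm10), ran from 3.12 to 7.58 CPM (median 5.45) on Day 4 and from 1.57 to 5.73 CPM (median 3.38) on Day 24. Its change was -0.65 ± 0.06 (log2, SE; edgeR adjusted p = 5.91e-09), lower in 28 of 29 mice. The NK receptor gene Klrb1c, which encodes NK1.1, fell from a median of 7.09 CPM (3.82 to 14.3) to 4.34 CPM (2.16 to 6.46), and was lower in 29 of 29 mice (change -0.72 ± 0.08; edgeR adjusted p = 3.18e-07). In both genes the ranges of the days overlapped, and the shift appeared within single mice.

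Genes of killing proteins were among those that fell. Prf1, the pore-forming perforin, fell from a median of 10.5 CPM (5.99 to 19.5) to 6.47 CPM (3.96 to 8.59), a change of -0.69 ± 0.08 (edgeR adjusted p = 1.3e-06). Gzma, granzyme A, fell from a median of 20.5 CPM (11.3 to 43.3) to 13.3 CPM (7.07 to 21.3), a change of -0.65 ± 0.09 (edgeR adjusted p = 7.53e-06). Each was lower in 29 of 29 mice. Among the genes with the smallest p were also the NK cell receptor gene Klra8 (-0.63), the granzyme inhibitor Serpinb9b (-0.71) and the interleukin 12 receptor chain Il12rb2 (-0.73). Without NR29, 23 of the 34 genes fell, and without the mice of stable disease 22 fell and 0 rose. In the 3-digit pairs 24 fell (median -0.38). In the 4-digit pairs 0 fell (median -0.28; edgeR, with 923 of all genes at an unadjusted p under 0.05), and 7 fell there without NR29 (median -0.25). The mean log2 level of the list was 1.80 ± 0.20 (SD, n = 29) on Day 4, 1.78 ± 0.20 (SD, n = 30) on Day 9, 1.63 ± 0.20 (SD, n = 29) on Day 17 and 1.45 ± 0.22 (SD, n = 29, without NR29) on Day 24.

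**Figure D2:**
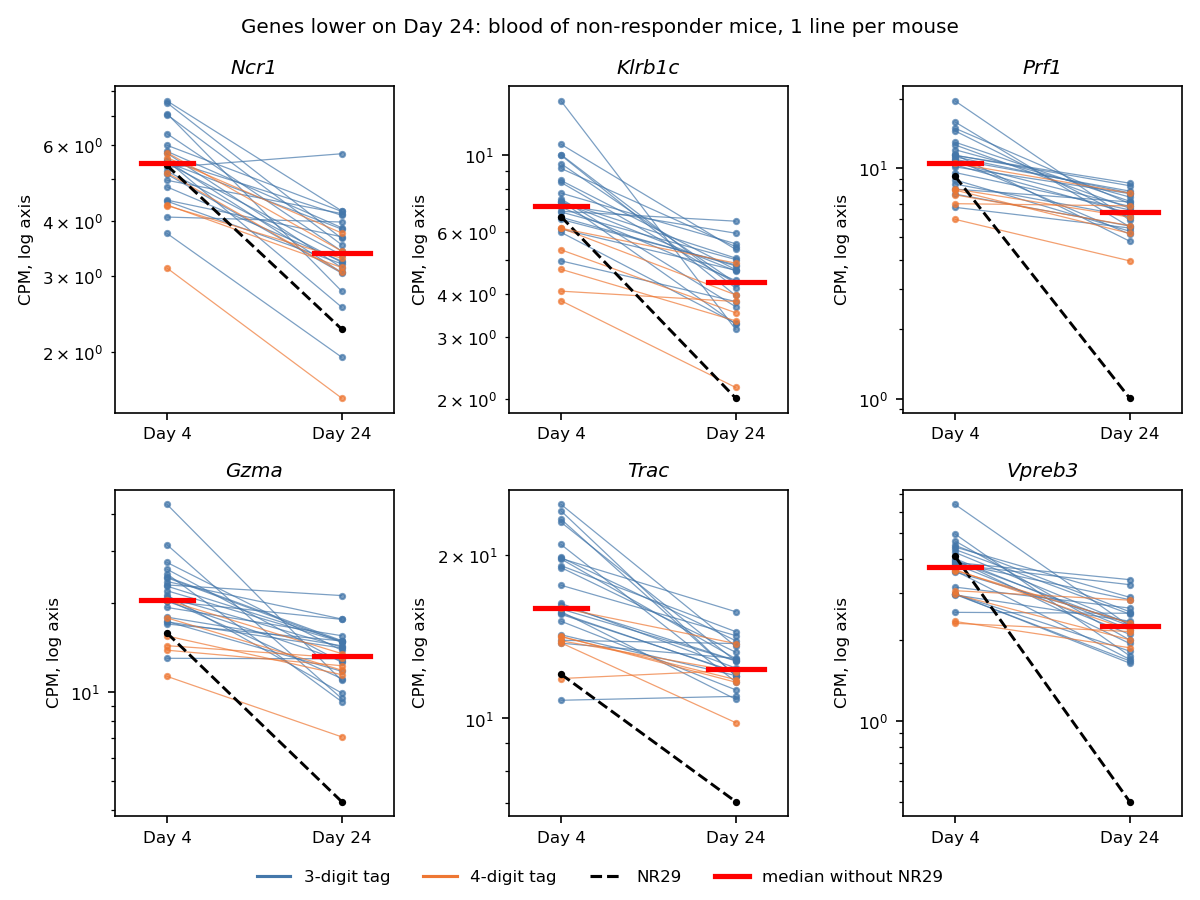
CPM of 6 genes with lower levels on Day 24 in non-responders, drawn as 1 line per mouse with the same colors, log axes and median bars as the plot of genes with higher levels. In Prf1 and Gzma every line goes down from Day 4 to Day 24, while the ranges of the 2 days overlap.

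T cell genes were mostly lower. Of 25 tested, 21 fell and 0 rose (median -0.22), and the mean of the list was lower in 28 of 29 mice. Across 28 mice without NR29 its change was not related to that of the cytotoxic and NK cell list at the threshold (r = 0.183, rho = 0.137, permutation p = 0.353 for r, adjusted p = 0.353; -0.03 without the 2 farthest mice, 0.147 and 0.113 within the 3-digit and 4-digit series). Trac, the constant gene of the T cell receptor alpha chain, went from a median of 15.9 CPM (10.8 to 24.7) to 12.3 CPM (9.83 to 15.7), a change of -0.40 ± 0.06 (log2, SE; edgeR adjusted p = 5.67e-06). Cd3e fell by 0.26 and was lower in 29 of 29 mice. The co-receptor gene Cd4 fell by 0.37 and Cd8a by 0.10. Day 24 was not the lowest day for this list: its mean log2 level was 3.96 ± 0.18 (SD, n = 29) on Day 4, 3.41 ± 0.16 (SD, n = 30) on Day 9, 3.60 ± 0.16 (SD, n = 29) on Day 17 and 3.73 ± 0.09 (SD, n = 29, without NR29) on Day 24. Of 13 genes of naive T cells, 9 fell and 0 rose (median -0.16), with Tcf7, a transcription factor of naive and memory T cells, at -0.18, and without the mice of stable disease 4 of the 13 fell. Within the 4-digit series without NR29 the T cell median was -0.12 and 0 of the 25 genes were called, with 1922 of 12177 genes at an unadjusted p under 0.05 in that fit (edgeR).

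Regulatory and checkpoint genes were mixed. Of 9 genes of regulatory T cells, 4 fell and 1 rose (median -0.04), and Foxp3, their defining transcription factor, fell by 0.31 from a median of 2.51 CPM (2.07 to 4.83) to 2.15 CPM (1.49 to 3.11). Of 18 checkpoint genes, 4 rose and 5 fell (median 0.03). Ctla4, an inhibitory receptor of activated and regulatory T cells, ran from 0.228 to 1.08 CPM (median 0.790) on Day 4 and from 0.777 to 1.52 CPM (median 1.10) on Day 24, a rise of 0.67 ± 0.10 (edgeR adjusted p = 1.5e-05), higher in 26 of 29 mice. On log2(TPM + 1) the change of Ctla4 was 0.01, against a median of -0.18 over all genes. Its medians were only 0.22 TPM on Day 4 and 0.24 TPM on Day 24. Cd160, a receptor of NK and CD8 T cells, fell by 0.64. Pdcd1, which encodes PD-1, was scarce, at 0 to 0.465 CPM (median 0.181) on Day 4 and 0.0989 to 0.460 CPM (median 0.205) on Day 24, and was not called (change 0.42 ± 0.23; edgeR adjusted p = 0.131).

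Red cell transcripts rose in most but not all mice. Of 37 genes of red cells and reticulocytes tested (of 39 listed), 32 rose and 1, the erythroid transcription factor Tal1 (-0.43), fell, with a median of 0.74. Slc25a37, the mitochondrial iron importer, ran from 99.9 to 473 CPM (median 213) on Day 4 and from 232 to 652 CPM (median 392) on Day 24, and stood at 5870 CPM in NR29. Its change was 0.94 ± 0.18 (log2, SE; edgeR adjusted p = 0.000202) and 0.86 without NR29 (edgeR adjusted p = 4.7e-05), higher in 25 of 29 mice, with ranges that overlapped. The transferrin receptor Tfrc rose by 0.72, the membrane protein Epb42 by 1.06 and the blood group protein Kel by 0.77. Alas2 rose by 0.64 (edgeR adjusted p = 0.0172), a call that DESeq2 did not make (DESeq2 adjusted p = 0.339). Among 4 adult haemoglobin genes, Hbb-bt rose (0.75) and the other 3 were not called, Hba-a1 at 0.34 (edgeR adjusted p = 0.362). Hbb-bt was not called by DESeq2 (DESeq2 adjusted p = 0.25), and without the mice of stable disease 0 of the 4 genes were called (edgeR, with 5927 of all genes at an unadjusted p under 0.05), with a median of -0.02 against 0.50 over all pairs. The copies of alpha and of beta globin are near-identical, so that the split of reads among them is uncertain.

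The red cell rise varied with the mice included. The change in the mean log2 level of the list ran from -0.75 in NR18 to 4.07 in NR29, was higher in 22 of 29 mice and averaged 0.56 (SD 0.69, n = 28) without NR29, when 32 genes rose and 2 fell. Without the 15 mice of stable disease, 4 genes rose and 3 fell, and the median was 0.21. Of all 12247 genes tested in that fit, 2218 rose and 2225 fell. Whether mice of stable disease differ from the other non-responders was not tested. On log2(TPM + 1) the median of the list was 0.16, which is 0.335 above the median of all genes on that scale. Within the 3-digit pairs 32 genes rose and 3 fell (median 0.665). In the 4-digit pairs 0 rose (median 0.895; edgeR, with 923 of all genes at an unadjusted p under 0.05), and 15 rose there without NR29 (median 0.49). Values of the red cell list are given beside other genes below, and its part in them was not tested.

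Of 19 serine, folate and ATF4 genes tested, 4 rose (21.1%, against 23.6% of all genes) and 6 fell (31.6%, against 21.3%). With NR29 left out, 6 rose and 6 fell, beside 26.7% and 23.9% of all genes. The median of the list then went from 0.12 to -0.01. Mthfd2, the mitochondrial enzyme of one-carbon metabolism, ran from 2.48 to 14.2 CPM (median 5.18) on Day 4 and from 6.53 to 46.6 CPM (median 17.2) on Day 24, and was higher in 29 of 29 mice (change 1.87 ± 0.22, log2, SE; edgeR adjusted p = 7.1e-07). NR29 stood at 596 CPM, and without it the change was 1.77 (edgeR adjusted p = 3.4e-08). Asns, asparagine synthetase, went from a median of 0.233 CPM (0.0654 to 0.606) to 0.630 CPM (0.235 to 1.24), a rise of 1.72 ± 0.23 (edgeR adjusted p = 4.01e-06). The amino acid transporter chain Slc7a5 rose by 1.24 and its partner Slc3a2 by 0.57. The 6 genes that fell included Phgdh (-0.28) and Psat1 (-0.27), the enzymes that start serine synthesis. Across 28 mice without NR29, the change of Mthfd2 rose with the change of the red cell list (Pearson r = 0.776, Spearman rho = 0.779, permutation p = 1e-05 for each, the smallest these permutations give, and adjusted p = 2e-05 over 6 relations). The correlation was 0.694 without the 2 mice farthest from the median, 0.831 in the 3-digit series and 0.092 in the 6 mice of the 4-digit series, so that it was not seen in the latter. Both changes of a mouse share its libraries' scaling factors.

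Promoter sequences of genes named above are shown because both lists have a textbook motif to look for. ATF4 binds composite elements of the form TGATGNAA, and AGATAA is among the sites that GATA factors of red cell precursors bind. Other forms of GATA sites were not searched, so that a promoter without a match may still hold such a site. Both strands of the 250 bases before the start site were searched (RefSeq, GRCm38.p6), and neither motif overlaps the other. TGATGNAA was found in 4 of 20 listed serine, folate and ATF4 genes with a promoter sequence (20.0%) and in 3.84% of 26734 genes. Of these 4 genes only Asns rose: Chac1 and Slc7a11 were not called and Vldlr was not tested, while the promoters of Mthfd2 and Slc3a2, which rose, held no match. AGATAA was found in 6 of 24 listed red cell genes with a promoter sequence (25.0%) and in 11.4% of all genes. Of these 6 genes 5 rose, and Tal1 fell, beside 32 of 37 tested genes of the whole list that rose (86.5%). Whether the motif goes with the rise was not tested. A match describes the letters of this window and not binding. The following lines give, 5′ to 3′ on the strand of the gene, Asns (chr6:7693210-7693459, minus strand, match 23 bases before the start), Alas2 (chrX:150547167-150547416, plus strand, 86 bases before), Epb42 (chr2:121036878-121037127, minus strand, 226 bases before) and Kel (chr6:41704326-41704575, minus strand, 56 bases before), and capitals mark the match, read as TTATCT where it lies on the other strand.
Asns: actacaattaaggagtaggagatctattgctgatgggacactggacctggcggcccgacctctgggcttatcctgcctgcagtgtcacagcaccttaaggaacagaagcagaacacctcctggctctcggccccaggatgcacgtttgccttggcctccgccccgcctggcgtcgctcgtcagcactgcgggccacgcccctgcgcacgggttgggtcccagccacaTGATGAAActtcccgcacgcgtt
Alas2: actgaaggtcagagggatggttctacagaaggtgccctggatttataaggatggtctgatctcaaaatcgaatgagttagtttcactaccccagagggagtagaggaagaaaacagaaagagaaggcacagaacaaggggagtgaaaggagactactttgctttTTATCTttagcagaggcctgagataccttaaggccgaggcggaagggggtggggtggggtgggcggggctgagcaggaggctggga
Epb42: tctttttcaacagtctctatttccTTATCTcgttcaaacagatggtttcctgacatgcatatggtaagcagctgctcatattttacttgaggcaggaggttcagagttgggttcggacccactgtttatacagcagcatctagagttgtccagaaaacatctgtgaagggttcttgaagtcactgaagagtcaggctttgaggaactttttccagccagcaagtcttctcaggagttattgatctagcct
Kel: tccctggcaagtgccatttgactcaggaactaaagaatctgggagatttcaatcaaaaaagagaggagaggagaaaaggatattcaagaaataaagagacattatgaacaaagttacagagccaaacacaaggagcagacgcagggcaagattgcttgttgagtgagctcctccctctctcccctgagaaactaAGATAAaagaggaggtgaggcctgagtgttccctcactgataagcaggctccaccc

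Lars2, Apol11b and Ryr2 were further genes with large changes, each higher in most mice. Lars2, a mitochondrial leucyl-tRNA synthetase, ran from 26.1 to 326 CPM (median 79.1) on Day 4 and from 180 to 527 CPM (median 268) on Day 24, a rise of 1.79 ± 0.23 (edgeR adjusted p = 1.97e-06), higher in 27 of 29 mice. The gene model Gm42418 (chr17:39846958-39848788, plus strand, mm10), chosen after its values were seen, lies in a region of ribosomal RNA sequence and rose by 1.11. Across 28 mice without NR29 the changes of both correlated at r = 0.958 (rho = 0.921, permutation p = 1e-05 for each, adjusted p = 2e-05), at 0.938 without the 2 mice farthest from the median, at 0.967 in the 3-digit series and at 0.953 in the 4-digit series of 6 mice. What part carried-over ribosomal RNA has in the value of Lars2 was not tested. Apol11b, of the apolipoprotein L family, rose by 1.52 ± 0.23 (edgeR adjusted p = 1.25e-05), from a median of 55.3 CPM (19.6 to 192) to 169 CPM (67.8 to 290). Its relatives Apol11a (1.60) and Apol10a (1.84), chosen after their values were seen, rose too, and they share sequence with it. The change of Apol11b correlated with that of the red cell list at r = 0.927 (rho = 0.918, permutation p = 1e-05 for each, adjusted p = 2e-05; 0.909 without the 2 farthest mice, 0.933 and 0.836 within the 3-digit and 4-digit series). Ryr2, an intracellular calcium channel, rose from a median of 0.555 CPM (0.0581 to 0.861) to 1.14 CPM (0.585 to 1.62) and was at 0 in NR29.

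Platelet transcripts fell in the 3-digit series. Over all 29 pairs, 17 of 25 platelet genes fell and 0 rose (median -0.46), and without NR29 22 fell (median -0.54). Without the mice of stable disease 19 fell, with a median of -0.825. Nrgn, a calmodulin-binding protein abundant in platelets, ran from 103 to 773 CPM (median 176) on Day 4 and from 35.7 to 160 CPM (median 94.0) on Day 24, a change of -0.93 ± 0.17 (log2, SE; edgeR adjusted p = 0.000124), lower in 26 of 29 mice. The ADP receptor P2ry12 fell by 0.77, the alpha granule chemokines Pf4 by 0.68 and Ppbp by 0.63, and Gfi1b, a transcription factor of the platelet and red cell lineages, by 0.70. In the 3-digit series 22 genes fell with a median of -0.68, whereas in the 4-digit series without NR29 1 gene fell with a median of -0.08. A difference between the series was not tested. Among other genes that fell, Draxin (-0.75) held its sign within the 4-digit series, and Mest (-0.81) had a change of 0.22 there. Across 28 mice without NR29 the change of the platelet list was higher where that of the red cell list was higher (r = 0.593, rho = 0.602, permutation p = 0.00112 for r, adjusted p = 0.00168), with 0.633 without the 2 farthest mice, 0.671 in the 3-digit series and 0.186 in the 6 mice of the 4-digit series.

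Chemokine genes were lower too, with overlap between lists. Of 27 listed only 10 were tested, and 6 fell and 0 rose (median -0.51). Ccl4 (-0.80), Ccl3 (-0.61) and Xcl1 (-0.57) are ligands that NK and T cells release, and Ccl5 is also on the cytotoxic list, while Pf4 and Ppbp are platelet genes. Ccl4 was low, from 0.159 to 0.756 CPM (median 0.366) on Day 4 and from 0.0534 to 0.528 CPM (median 0.193) on Day 24.

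**Figure D3:**
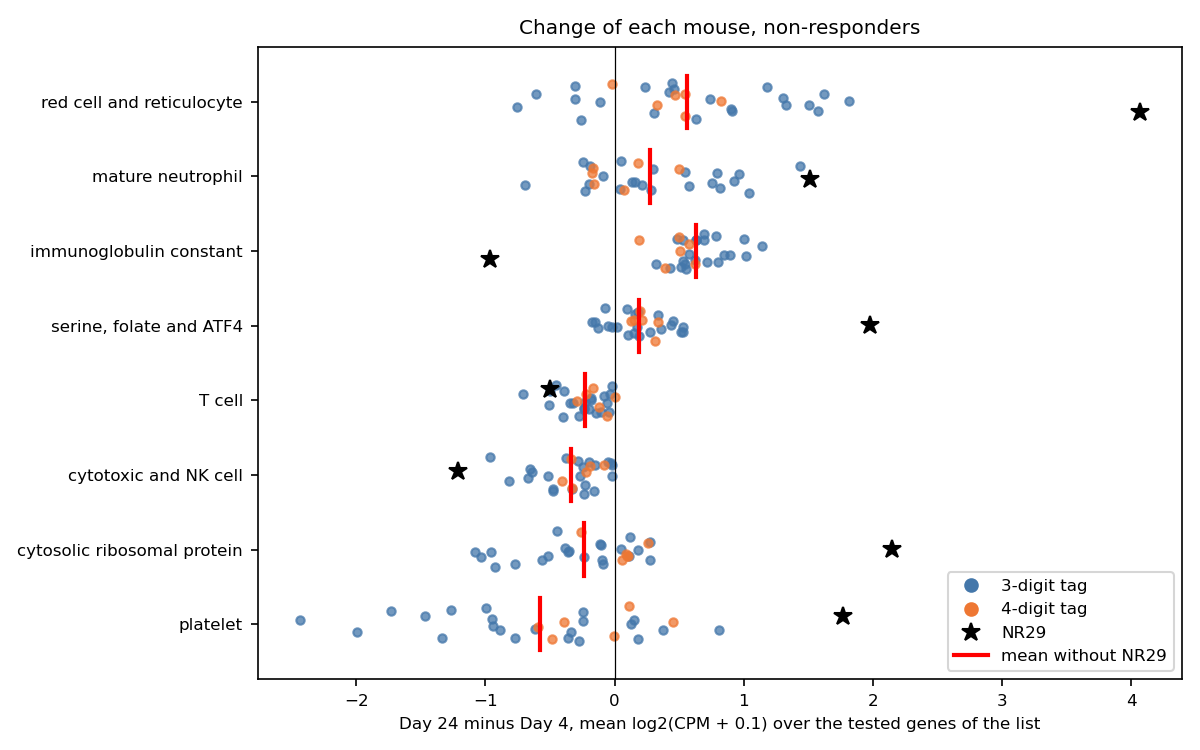
Change of each non-responder mouse from Day 4 to Day 24, as the difference in the mean log2(CPM + 0.1) over the tested genes of 8 lists, with points for mice colored by ear tag series, a star for NR29 and a red bar at the mean without NR29. The cytotoxic and NK cell list lies below 0 in all 29 mice, whereas the red cell and platelet lists spread on both sides of 0, and NR29 has the highest or the lowest value in all lists except that of T cells.

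Neutrophil transcripts were higher on Day 24 than on Day 4, after a higher level still on Day 9. Of 26 genes of mature neutrophils, 14 rose and 0 fell (median 0.39). Clec4e, a receptor for fungal and mycobacterial glycolipids, ran from 1.43 to 4.74 CPM (median 2.84) on Day 4 and from 2.66 to 10.0 CPM (median 4.38) on Day 24, a rise of 0.81 ± 0.13 (log2, SE; edgeR adjusted p = 3.15e-05), higher in 27 of 29 mice. Il1b, the inflammatory cytokine interleukin 1 beta, rose by 0.76 ± 0.12 (edgeR adjusted p = 3.57e-05), from a median of 12.1 CPM (5.21 to 26.4) to 20.2 CPM (8.64 to 43.6), and S100a8, a subunit of calprotectin, rose by 0.50. The mean log2 level of the list was 2.64 ± 0.35 (SD, n = 29) on Day 4, 3.51 ± 0.38 (SD, n = 30) on Day 9, 3.18 ± 0.42 (SD, n = 29) on Day 17 and 2.93 ± 0.39 (SD, n = 29, without NR29) on Day 24. It was higher on Day 24 than on Day 4 in 20 of 29 mice. On log2(TPM + 1) the median of the list turned to -0.03, which is 0.14 above the median of all genes on that scale. In the 4-digit series without NR29 the median was 0.09. Granule genes of younger neutrophils showed no common direction, with 2 of 11 that rose, Anxa1 (0.48) and S100a8, and 1 that fell, Chil3 (-0.57).

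Monocyte and pattern receptor genes were mixed. Of 20 genes of classical monocytes, 3 rose, among them the chemokine receptor Ccr2 (0.40) and the lipopolysaccharide co-receptor Cd14 (0.80), and 2 fell, among them Ly6c2 (-0.43). These counts were 4 and 4 without NR29, and 3 and 5 in the 3-digit pairs. The change of Ccr2 was -0.10 on log2(TPM + 1), against a median of -0.18 over all genes. Of 15 genes of nonclassical monocytes 4 rose and 3 fell (median -0.06; 2 and 8 in the 3-digit pairs), and of 13 of dendritic cells 2 rose and 5 fell (median -0.05). Among 20 Toll-like receptor pathway genes 7 rose and 2 fell, and Tlr9, the receptor for unmethylated DNA found in B cells and plasmacytoid dendritic cells, fell by 0.51. Of 19 Fc receptor and complement genes 4 rose and 3 fell. Of 14 genes of basophils and eosinophils, 4 fell and 1 rose, with the mast cell and basophil protease Cpa3 at -0.90 and the transcription factor Gata2 at -0.67. The median of this list was -0.11 in the 3-digit pairs and -0.74 in the 4-digit pairs, where 6 fell without NR29, and 1 fell without the mice of stable disease.

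The receptor Lifr and the feedback inhibitor Socs3 led the interleukin 6 family. Lifr, the receptor chain for leukemia inhibitory factor (chr15:7090614-7197489, plus strand, mm10), ran from 0.758 to 3.38 CPM (median 2.24) on Day 4 and from 2.68 to 7.79 CPM (median 3.81) on Day 24, a rise of 0.93 ± 0.09 (log2, SE; edgeR adjusted p = 2.92e-08), higher in 28 of 29 mice. Socs3, which shuts off signalling through gp130, rose by 0.74 ± 0.10 (edgeR adjusted p = 2.76e-06), from a median of 8.72 CPM (5.06 to 12.1) to 13.7 CPM (8.73 to 24.9), also higher in 28 of 29 mice. Of the 10 genes of this family that were tested, 4 rose and 1 fell, with a median of 0.08. On log2(TPM + 1) the median was -0.26, which is 0.08 below the median of all genes on that scale. Both genes were already at 4.27 and 16.7 CPM (medians) on Day 9.

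Interferon-stimulated genes did not rise as a group. Of 39 tested, 3 rose and 11 fell (median -0.08), and without the mice of stable disease 1 rose and 18 fell (median -0.20). Rsad2, the antiviral enzyme viperin and a gene named outside the rule after its values were seen, rose by 0.89 and stood at 11300 CPM in NR29, against 298 to 923 CPM in the other Day 24 libraries, as red cell genes did. Iigp1, an interferon-inducible GTPase, rose by 0.68, and Ifi27l2a fell by 0.58 ± 0.08 (edgeR adjusted p = 9.43e-06), while Isg15 was not called (0.42 ± 0.22; edgeR adjusted p = 0.115). Of 21 genes of MHC class I antigen presentation 11 fell and 5 rose (median -0.13), with B2m, the light chain of class I, at -0.43. The class I heavy chain H2-K1, higher in 24 of 29 mice, was not called, at 0.07 (edgeR adjusted p = 0.178), but rose by 0.105 without NR29 (edgeR adjusted p = 0.0087). Of 10 MHC class II genes 3 fell, led by the invariant chain Cd74 (-0.41), and 3 rose.

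Cell division genes went both ways. Of 34 tested, 11 rose and 9 fell, with a median of 0.12. On log2(TPM + 1) the median was -0.08, which is 0.10 above the median of all genes on that scale. The genes that rose included Mki67 (0.71), which marks dividing cells and stood at 166 CPM in NR29 against at most 13.2 CPM in the other Day 24 libraries, and cyclin A2, Ccna2 (0.83), whereas the replication helicase subunits Mcm3 (-0.23) and Mcm5 (-0.25) fell. Without the mice of stable disease 3 rose and 6 fell. Heat shock chaperones were lower, with 11 of 21 that fell and 1 that rose (median -0.15), among them the co-chaperone Stip1 (-0.43) and the constitutive chaperone Hspa8 (-0.35). Immediate early genes went both ways, with 8 of 26 that rose and 4 that fell: Fos rose by 0.54 and Egr1 fell by 0.45. On log2(TPM + 1) the change of Fos was -0.04, against a median of -0.18 over all genes.

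Within the machinery of RNA and protein synthesis, splicing factors moved in both directions. Of 56 tested, 18 rose and 25 fell (median -0.04). Sf3a2, of the U2 particle, ran from 6.51 to 14.8 CPM (median 8.36) on Day 4 and from 5.31 to 7.43 CPM (median 6.31) on Day 24 and was lower in 29 of 29 mice (change -0.52 ± 0.06; edgeR adjusted p = 1.5e-06), and Snrpa, of the U1 particle, fell by 0.38. The SR protein gene Srsf7 rose by 0.54, and 7 other SR protein genes of the list rose, while Srsf4 fell (-0.09) and Srsf9 was not called. Of 82 cytosolic ribosomal protein genes 16 fell and 0 rose (median -0.16), with Rpl6 at -0.35 (0.10 in the 4-digit pairs). This count rested on NR29, since 52 fell without it (median -0.23), and on the series, since 64 fell in the 3-digit pairs while the median in the 4-digit pairs without NR29 was 0.08. Without the mice of stable disease 68 fell (median -0.43). Of 78 respiratory chain genes 25 fell, with the complex I subunit Ndufa10 at -0.46, and 7 rose (median -0.08). These counts varied with the mice included: 35 fell and 6 rose without NR29, 43 and 1 without the mice of stable disease, and 40 and 3 in the 3-digit pairs, while in the 4-digit pairs 0 were called (edgeR, with 923 of all genes at an unadjusted p under 0.05) and the median was 0.19. Tcof1, the nucleolar protein treacle and a gene outside the rule, chosen after its values were seen, was the only gene of 12375 (0.00808%) whose Day 24 libraries were all below all Day 4 libraries, at 18.7 to 24.3 CPM (median 21.8; NR29 13.1) against 24.4 to 32.8 CPM (median 27.2). Its change was -0.34 ± 0.04 (edgeR adjusted p = 1.26e-07).

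Epithelial genes, which could mark tumor RNA, were mostly too low to test: 6 of 25 were tested, 1 rose and 1 fell. Krt6a, a keratin of activated epithelium, rose by 1.32 ± 0.45 (edgeR adjusted p = 0.0177), from 0 to 1.33 CPM (median 0.213) on Day 4 to 0.0254 to 2.78 CPM (median 0.363) on Day 24, and its median was 1.71 CPM on Day 9. Within the 3-digit pairs it was not called (0.78; edgeR adjusted p = 0.134) and was higher in 13 of 22 mice, and it was higher in 7 of 7 mice of the 4-digit series. The mean log2 level of the epithelial list was higher in 9 of 22 and in 7 of 7 mice. In the 3-digit and in the 4-digit pairs 0 genes of the list were called (edgeR, with 7150 and 923 of all genes at an unadjusted p under 0.05), and in the 4-digit pairs without NR29 2 rose and 1 fell. The adhesion gene Cdh1 fell by 0.51 (edgeR adjusted p = 0.016).

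**Figure D4:**
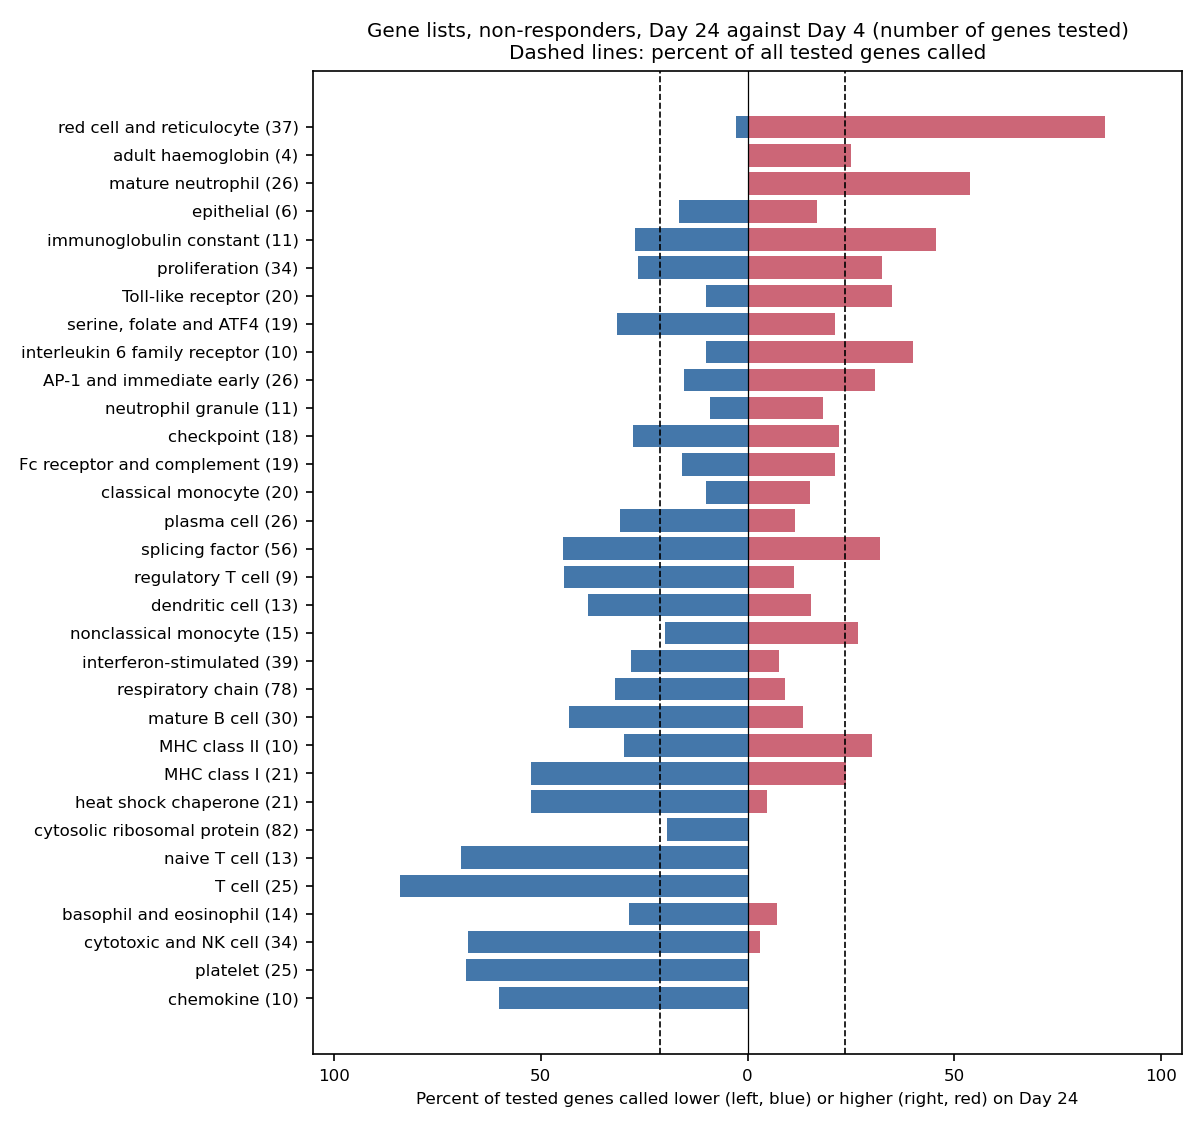
Share of the tested genes of each list, the check of sex-specific genes left out, called lower (left, blue) or higher (right, red) on Day 24 in non-responders, in percent, with dashed lines at the shares over all 12375 genes, 21.3% lower and 23.6% higher. The bars of the red cell list reach farthest to the right and those of the T cell list farthest to the left.

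**Figure D5:**
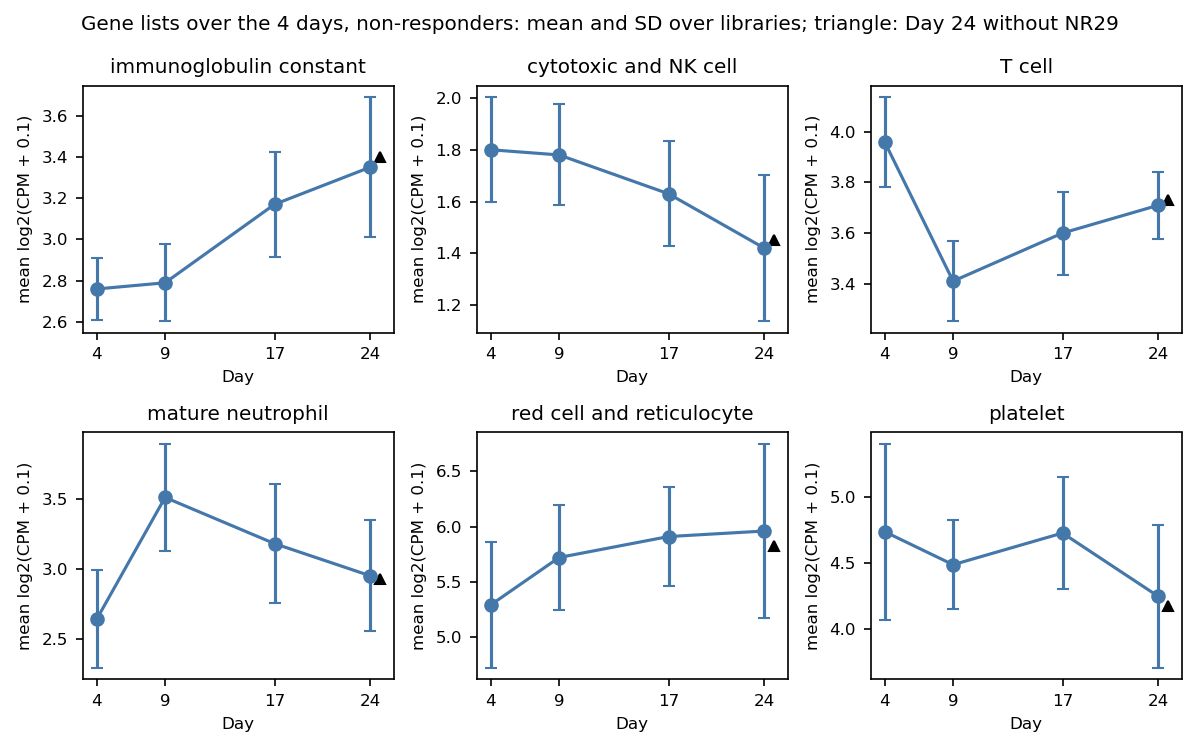
Mean log2(CPM + 0.1) of gene lists in non-responder libraries on Days 4, 9, 17 and 24, with error bars of 1 SD over 29 or 30 libraries and a triangle at the Day 24 mean without NR29. The neutrophil list peaks and the T cell list is lowest on Day 9, while the cytotoxic and NK cell list is lowest and the immunoglobulin list highest on Day 24.

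The change of the non-responders was set against that of 15 responder pairs in a fit over 88 libraries. Of 13075 genes, 21 (0.161%) had a higher change in responders and 7 (0.0535%) a lower one at an edgeR adjusted p of at most 0.05. In responders 11 of 15 pairs have 4-digit tags, so that response and series were partly confounded, and with the series in the model 0 genes were called (edgeR; 2368 at an unadjusted p under 0.05). Within the 3-digit pairs (4 of responders) 0 genes were called, with 623 at an unadjusted p under 0.05, and within the 4-digit pairs 0 with 1299. Sema4b, a semaphorin, fell by 0.27 in non-responders (12.1 to 9.70 CPM, medians) and had a change 0.50 ± 0.10 higher in responders (edgeR adjusted p = 0.0388). Iqsec1, an activator of ARF GTPases, fell by 0.15 and had a change 0.32 higher in responders (edgeR adjusted p = 0.0388). Cyp27a1, the sterol 27-hydroxylase, rose in 29 of 29 non-responders by 0.55 ± 0.06, from a median of 2.16 CPM (1.27 to 3.14) to 3.01 CPM (2.38 to 3.81), and its change was 0.61 lower in responders (difference -0.61; edgeR adjusted p = 0.0392). The difference for Il1b was -0.86 (edgeR adjusted p = 0.0499), and Ighg1, Jchain, Ncr1, Prf1 and Mthfd2 were not among the 28 genes.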

How the data were processed

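The authors aligned reads to the mouse genome (STAR and mm10 are in the submitters' processing notes; the counting tool is not given in the sources used here) and deposited 2 tables. The first holds the authors' expected counts per gene, as deposited. Of these values 3.14% are not whole, and all were rounded. All 55450 gene identifiers match GENCODE M21 (GRCm38), which gave the positions. The second holds the authors' TPM per gene symbol, scaled to 1 sum per library with haemoglobin included. No column was left unused, and no libraries were identical.

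After filterByExpr and TMM scaling, counts were tested with edgeR 4.0.16 (R 4.3.3; glmQLFit and glmQLFTest) with the mouse as a block, and Benjamini-Hochberg adjustment over all genes tested, at 0.05. The pairing comes from the ear tag. Deviations from the day means of the 2 libraries of a mouse correlated at 0.0376 on average (-0.201 to 0.363), against 0.00793 between different mice, and 0 of 29 mice were best matched to themselves. The difference between response groups was the interaction of response and day. Scores of gene lists are means of log2(CPM + 0.1) over tested genes. Relations and haemoglobin shares used 100000 permutations, or all where fewer exist. Alternatives were DESeq2 1.42.0, limma 3.58.1 on log2(TPM + 1) and log2(TPM + 0.1), other scalings and count filters, and subsets of mice. Only the paired fit of the non-responders was tested on simulated data, in which mice differed in library size alone. The other fits were not tested in this way. Precision is set by the counts outside haemoglobin, and intervals from mice include counting error.

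The comparison, the 33 gene lists and the tests were chosen with earlier results of these data known. Named genes are the 10 with the smallest p in each direction at a fold change of at least 1.5, the 5 largest of these changes in each direction among genes with a mean of at least 1 log2 CPM and the same direction in at least 24 pairs, for each list its first gene and the 3 with the smallest p, and 3 of the difference in each direction, of which the text gives a part. Other list members (Ighg3, Igkc, Iglc1, Cd79a, Klrd1, Cd4, Cd8a, Tal1, Epb42, Kel, Slc3a2, Phgdh, Psat1, Ccl3, Xcl1, Ccl5, Cd14, B2m, Ccna2, Hspa8, Chac1, Slc7a11, Vldlr and the SR protein genes) were named after their values were seen. The Day 17 library of NR24 is labelled a responder and was left out of Day 17 levels. A few genes picked by this rule are left out of the text.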

Additional observations from a re-analysis of the deposited data

Results flagged for a closer look

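Between Day 4 and Day 24, 8 genes described here had a change that differed between responders and non-responders by the interaction test of edgeR at an adjusted p of at most 0.05. On the log2 scale, responder change minus non-responder change, the difference was 4.60 for the nucleoside transporter Slc28a3, 0.503 for Sema4b, 0.318 for Iqsec1 and 0.264 for Tcof1, all higher in responders. It was -0.861 for Il1b, -0.608 for Cyp27a1, -0.505 for Ccdc107 and -0.341 for the proton pump subunit Atp6v0b, all lower in responders. Slc28a3 had no count in 8 non-responder Day 4 libraries and a median of 13 counts on that day. Its difference was 3.27 within the 3-digit pairs and 0.365 within the 4-digit pairs. With the ear tag series in the model none of the 13075 genes passed (edgeR; 2368 at an unadjusted p under 0.05), and the differences then were 3.04 for Slc28a3, 0.50 for Sema4b, 0.33 for Iqsec1, -0.68 for Il1b and -0.44 for Cyp27a1.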

How the results depend on the processing

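The counts of genes that rose and fell on Day 24 (2922 and 2630) stayed within 1.5 times under DESeq2, RLE size factors, haemoglobin genes removed, a filter of at least 1 count in 1 library, the 3-digit pairs, without NR29 and without the mice of stable disease. They moved to 1939 and 1639 for genes with at least 10 counts in every library (fewer genes tested), 349 and 164 with a fold change of at least 1.5, 12 and 0 in the 4-digit pairs (923 at an unadjusted p under 0.05), 267 and 98 there without NR29, 148 and 8037 with limma on log2(TPM + 1), and 143 and 6960 on log2(TPM + 0.1), where the median of all genes was -0.37. In the fit with no replicate block, which does not pair the mice and adds NR23, 2919 rose and 2781 fell. The alternatives that combine the 10-count filter or the 4-digit pairs with leaving out NR29 were chosen after seeing the data.

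The difference between response groups (21 higher and 7 lower in responders) became 56 and 19 with no replicate block, 32 higher without NR29, 7 and 3 for genes with at least 10 counts in every library without NR29, and 0 and 0 with the series in the model, in the 3-digit pairs and in the 4-digit pairs. The cause was not tested. The difference in haemoglobin share was 2.23 percentage points in the 4-digit pairs.

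Of 111 genes named, 110 kept their side of the threshold without NR29, 89 of those tested did so without the mice of stable disease, and 20 no longer passed there. In the 4-digit pairs 8 kept their side and 91 no longer passed, and without NR29 there 38 did and 65 no longer passed. With DESeq2 106 kept their side, and Alas2 and Hbb-bt no longer passed. With limma on log2(TPM + 1) 88 kept their side and 16 no longer passed, and on log2(TPM + 0.1) 88 and 17. The median of all genes was -0.18 and -0.37 on these scales, and directions that turned there are to be read beside it. Directions turned on log2(TPM + 1) for Atp6v0b (-0.165), Ccdc107 (-0.191), Ccr2 (-0.0987), Fos (-0.0393), Hba-a1 (-0.129), Klrd1 (-0.207) and Srsf9 (-0.286), on log2(TPM + 0.1) for Atp6v0b (-0.191), Ccdc107 (-0.322), Ccr2 (-0.118), Hba-a1 (-0.129), Klrd1 (-0.294) and Srsf9 (-0.417), in the 4-digit pairs for Chil3 (0.297), Mest (0.217), Rpl6 (0.0976), Srsf4 (0.00668), Srsf7 (-0.0154) and Tal1 (0.0931), and there without NR29 for Mest (0.00808) and Rpl6 (0.018).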
